A study of Mus musculus with 2 samples.

Results

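Rhox5, Kcnq5, Gm30835, Tpm2, Hmga2, Wfdc2, Selenbp1 and Mgst2 are 8 of the 33696 genes counted in single cells of PyMT-M and PyMT-N mouse mammary tumors. They were chosen because earlier summaries of these counts placed them in PyMT-M tumor cells, so their differences between tumor cells of the models, and between cell classes of PyMT-M, are given as descriptions with no test. PyMT-M and PyMT-N are sublines of MMTV-PyMT tumors, in which a mammary tumor virus promoter drives the polyoma middle T oncogene in mammary epithelium, and the study calls them High-MAC and Low-MAC for their macrophage content. Cells of each subline were transplanted into the fourth mammary fat pad of female C57BL/6 recipients aged 6 to 8 weeks, and the labels name no treatment. Cells of 3 tumors were pooled per model after depletion of CD45+ and Ter119+ cells and a sort for CD31+ CD144+ cells, so each model has 1 library and no replicate.

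Cells with at least 200 detected genes and at most 10% mitochondrial counts were kept, which left 6719 of 7821 PyMT-M barcodes and 5607 of 6974 PyMT-N barcodes. Levels are given in CPM, the unique molecular identifiers (UMIs) of a gene per 1000000 UMIs of all cells of a class. Intervals are 95% exact intervals, and they cover counting error only. Tumor cells had at least 2 Krt8 and Krt18 UMIs and none of Pecam1 or Flt1, and numbered 4087 in PyMT-M and 3359 in PyMT-N. Endothelial cells (618 and 1243) had at least 5 UMIs of Pecam1, Flt1, Emcn and Kdr and at most 1 keratin UMI. Fibroblast cells (58 and 63) had Col3a1 at 3000 CPM or more, and Ptprc+ cells (488 and 357) had any UMI of that pan-leukocyte gene. A further class held at least 5 endothelial and at least 3 keratin UMIs in the same barcode (73 and 155 cells). Classes could overlap, and 1445 PyMT-M and 534 PyMT-N cells fell in none. Although both samples are labelled endothelial, only 9.20% of PyMT-M and 22.2% of PyMT-N cells were of the endothelial class. The libraries shared 20 barcodes, 12 of them kept in both.

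The tumor class was read for 15 epithelial markers, among them Krt8 and Krt18, which define the class. In the PyMT-M tumor class, 1 of the 15 was detected in at least 25% of cells, and in PyMT-N 2 of 15. The keratins of the class limit made up nearly all of the summed level of the 15 (312 CPM in PyMT-M, 1795 CPM in PyMT-N). The count is therefore no independent check of the name. PyMT-M cells were selected on Krt8 almost alone: Krt8 stood at 306 CPM in PyMT-M and 799.7 CPM in PyMT-N, whereas Krt18 stood at 0.0669 CPM and 993 CPM. Cdh1, the epithelial cadherin, was close to 0 in both (0.0764 and 0.105 CPM), and Epcam reached 3.88 CPM in PyMT-M and 0.406 CPM in PyMT-N. Of 8 fibroblast markers, 3 were detected in at least 25% of tumor-class cells in PyMT-M and 4 in PyMT-N. Their summed level was 408 CPM in PyMT-M and 727 CPM in PyMT-N. By the looser measure of any UMI in the class, all 8 fibroblast markers were found in both libraries. By that measure 5 of the 15 epithelial markers were missing in PyMT-M and 2 in PyMT-N. Col3a1 was found in 96.9% of PyMT-M tumor cells at 312 CPM. The 12 endothelial markers summed to 38.6 and 13.3 CPM and the 8 leukocyte markers to 11.6 and 18.7 CPM, with Cdh5 at 1.75 and 1.96 CPM. The part that carry-over from other cells has in these levels was not tested.

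The 8 genes have no common pathway. Rhox5 is a homeobox gene of an X-linked reproductive cluster, normally read in testis, epididymis and ovary and often held silent by DNA methylation elsewhere. Kcnq5 encodes a voltage-gated potassium channel subunit that carries M-type current in neurons and muscle, and Gm30835 is annotated as a long noncoding RNA. Tpm2 encodes beta-tropomyosin, which wraps actin filaments in muscle and myofibroblasts. Hmga2 is an architectural chromatin protein of embryonic tissue and many tumors, and its messenger RNA is a known target of let-7 microRNAs. Wfdc2 (HE4) is a secreted epithelial protein with whey acidic protein domains. Selenbp1 is a selenium-binding methanethiol oxidase, and Mgst2 is a membrane glutathione S-transferase that can make leukotriene C4.

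The stretches just before the transcription start are shown for the 4 genes on which the pattern turns, namely Rhox5, the 2 genes nearly absent from PyMT-N tumor cells, and Hmga2, which was not. They are the 250 bases upstream of the RefSeq start on build GRCm38.p6, an earlier build than the mm39 named for the counts, and are written 5′ to 3′ on the strand of the gene. Rhox5 lies at chrX:37754358-37754607 on the plus strand. Kcnq5 (chr1:21962651-21962900), Gm30835 (chr5:7960393-7960642) and Hmga2 (chr10:120476470-120476719) lie on the minus strand, and the Kcnq5 window is the first of 2 listed. Capitals mark letters of the motifs TGANTCA (AP-1), GGGCGG (GC box), CCAAT and TATAAA, searched on both strands.
Rhox5: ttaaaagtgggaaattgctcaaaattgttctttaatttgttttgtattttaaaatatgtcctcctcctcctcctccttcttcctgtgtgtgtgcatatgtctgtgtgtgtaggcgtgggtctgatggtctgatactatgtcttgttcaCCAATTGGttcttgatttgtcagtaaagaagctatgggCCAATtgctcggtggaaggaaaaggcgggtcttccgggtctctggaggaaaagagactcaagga
Kcnq5: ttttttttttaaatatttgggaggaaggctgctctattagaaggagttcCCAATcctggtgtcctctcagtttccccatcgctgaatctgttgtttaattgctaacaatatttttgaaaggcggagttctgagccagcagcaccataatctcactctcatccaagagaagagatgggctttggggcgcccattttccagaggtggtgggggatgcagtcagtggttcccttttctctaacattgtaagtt
Gm30835: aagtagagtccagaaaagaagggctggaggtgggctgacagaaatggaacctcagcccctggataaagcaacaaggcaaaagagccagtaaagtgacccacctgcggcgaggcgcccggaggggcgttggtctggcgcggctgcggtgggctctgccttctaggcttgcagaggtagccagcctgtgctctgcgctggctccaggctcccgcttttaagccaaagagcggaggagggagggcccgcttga
Hmga2: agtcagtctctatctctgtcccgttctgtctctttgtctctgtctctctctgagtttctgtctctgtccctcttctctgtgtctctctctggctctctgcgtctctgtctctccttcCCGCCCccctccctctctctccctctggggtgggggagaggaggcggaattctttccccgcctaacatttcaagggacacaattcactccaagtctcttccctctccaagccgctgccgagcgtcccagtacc

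All 8 genes had such a window. The Rhox5 stretch held CCAAT at 102 and 64 bases before the start and its complement at 99, Kcnq5 held CCAAT at 201, and Hmga2 held a GC box on the other strand at 133 bases. Gm30835 held none of the 4 motifs. Among the 8 windows 1 held AP-1 letters, 3 a GC box, 4 CCAAT and 2 TATAAA, beside 6.87%, 32.9%, 34.5% and 12.97% of 27025 windows of the same length. CpG pairs, the sites of DNA methylation, numbered 4 in the Rhox5 window, 3 in Kcnq5, 12 in Gm30835, 17 in Tpm2, 8 in Hmga2, 14 in Wfdc2, 4 in Selenbp1 and 0 in Mgst2, with a median of 6 over all windows. The genes thus covered CpG-poor and CpG-rich starts alike, and no motif was found in all of them. A match of letters is not a site of binding.

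Whether gene length has a part in differences of CPM between genes was not tested. Rhox5 had the highest CPM of the 8 in PyMT-M tumor cells. It stood at 680.1 CPM there (interval 675 to 685) and at 14.2 CPM (13.4 to 15.1) in PyMT-N tumor cells, with a UMI in 99.5% and 12.6% of cells. Kcnq5 stood at 570.2 CPM (566 to 575) in PyMT-M and 1.15 CPM (0.924 to 1.42) in PyMT-N, in 92.8% and 1.94% of cells. Gm30835 stood at 242 CPM (239 to 245) in PyMT-M tumor cells, in 83.8% of them. In PyMT-N it had 2 UMIs in 3359 tumor cells, or 0.0262 CPM (0.00317 to 0.0946). All 3 genes were found in most PyMT-M and few PyMT-N tumor cells.

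Tpm2 stood at 266 CPM (263 to 269) in PyMT-M tumor cells and 4.20 CPM (3.76 to 4.69) in PyMT-N, in 97.9% and 3.13% of cells. Selenbp1 stood at 39.0 CPM (37.9 to 40.3) in PyMT-M, the lowest of the 8 there, and at 3.56 CPM (3.15 to 4.01) in PyMT-N, in 41.5% and 6.46% of cells. Wfdc2 stood at 214 CPM (211 to 216) against 32.2 CPM (30.9 to 33.5), in 91.5% and 27.3% of cells. For Wfdc2 and Mgst2 a sizeable minority of PyMT-N tumor cells also held the transcript. Mgst2 stood at 121 CPM (119 to 124) in PyMT-M and 22.2 CPM (21.2 to 23.3) in PyMT-N, in 88.4% and 25.2% of cells.

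Hmga2 went against the description of the group as particular to PyMT-M. It stood at 598 CPM (594 to 603) in PyMT-M tumor cells and at 1446 CPM (1437 to 1454) in PyMT-N, and was found in 97.7% and 96.9% of cells. The median PyMT-M tumor cell held 11 Hmga2 UMIs and the median PyMT-N tumor cell 22. For the other 7 genes the median PyMT-N tumor cell held 0 UMIs, whereas the median PyMT-M tumor cell held 16 of Rhox5, 10 of Kcnq5, 6 of Tpm2, 4 of Gm30835 and of Wfdc2, 3 of Mgst2 and 0 of Selenbp1.

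**Figure D1:**
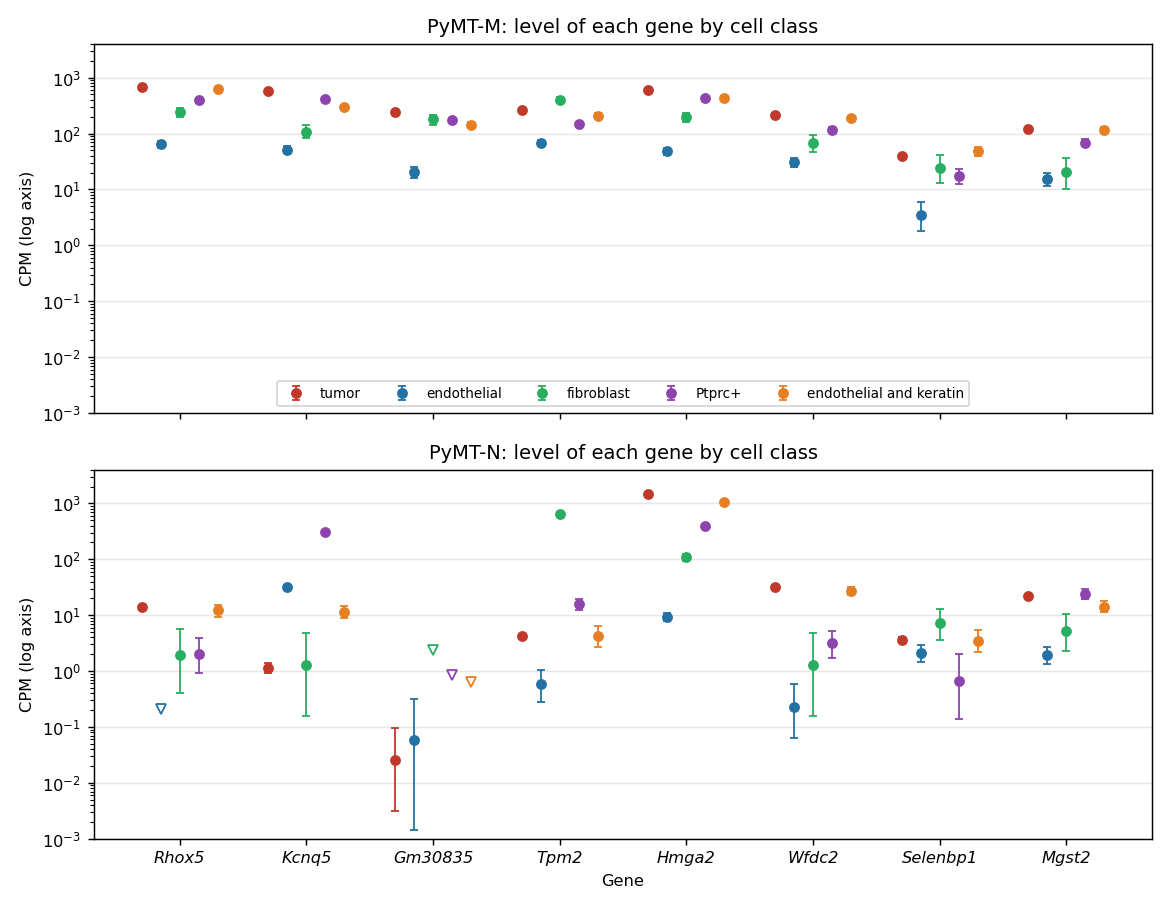
Level of each of the 8 genes (CPM, log axis) in the 5 cell classes of PyMT-M (top) and PyMT-N (bottom), with 95% exact Poisson intervals. Open triangles mark the upper interval bound where no UMI was found. In PyMT-M each of the 8 genes is lowest in endothelial cells, and in PyMT-N Kcnq5 is highest in Ptprc+ cells (302 CPM), Tpm2 in fibroblast cells (639 CPM) and Hmga2 in tumor cells (1446 CPM).

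The fold between libraries was read against all 12420 genes with at least 200 UMIs over both tumor classes, a minimum that all 8 genes passed. In PyMT-M 5 of the 8 were at least 8-fold higher, where 5.52% of all genes were (686 genes), and none was 8-fold lower, where 8.97% were. The genes were chosen on this contrast, so nothing is read from that count. As a log2 ratio, PyMT-M tumor cells stood 13.17 above PyMT-N for Gm30835 (11.32 to 16.22), which ranked 1 of 12420. Genes with no PyMT-N UMI entered at the floor of 3 counts, above the 2 UMIs of Gm30835. Their ratios are lower bounds, so that rank is not established. The ratio was 8.95 for Kcnq5 (8.65 to 9.27), 5.98 for Tpm2 (5.83 to 6.15), 5.58 for Rhox5 (5.49 to 5.67) and 3.46 for Selenbp1 (3.28 to 3.64). Wfdc2 (2.73, 2.67 to 2.79) and Mgst2 (2.45, 2.38 to 2.52) were below 8-fold, ranking 788 and 909 of 12420. Hmga2 had a ratio of -1.27 (-1.29 to -1.26), against a median of -0.06 over all genes.

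**Figure D2:**
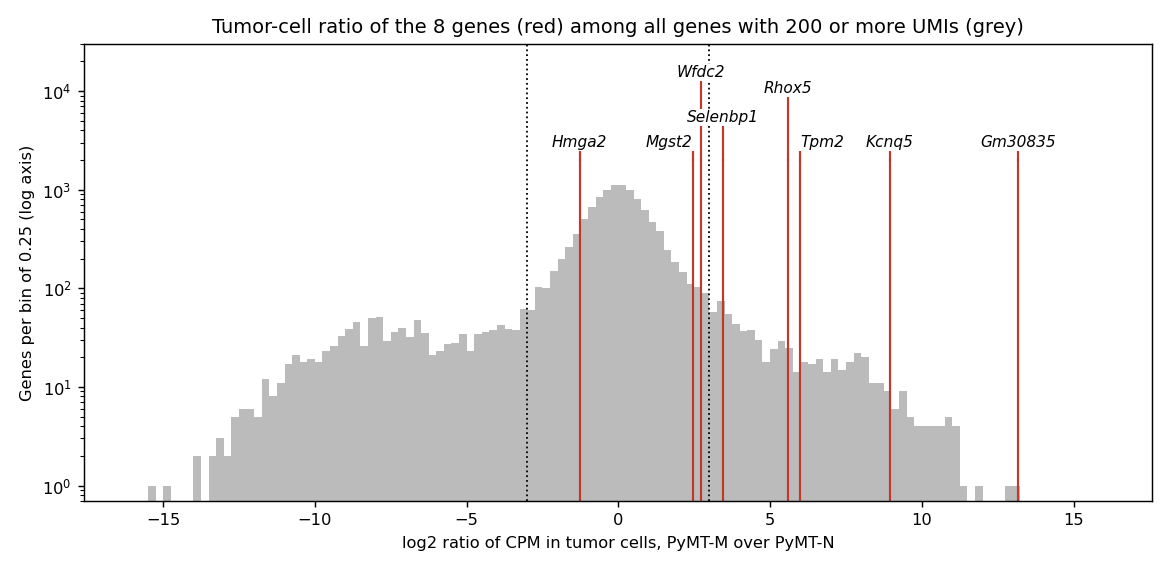
Histogram of the log2 ratio of tumor-cell CPM, PyMT-M over PyMT-N, for 12420 genes in bins of 0.25 (grey, log axis), with the 8 genes as red lines and 8-fold limits dotted. Gm30835 lies at the right end (13.17), Wfdc2 and Mgst2 lie just inside the limit, and Hmga2 lies left of 0 (-1.27).

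Cells just below the keratin limit also held the 8 genes. In PyMT-M the 383 cells with 1 keratin UMI, and no Pecam1 or Flt1, had Rhox5 at 634 CPM, Gm30835 at 314 CPM and Hmga2 at 659.8 CPM. The 424 cells with 2 keratin UMIs had 667, 316 and 641 CPM. Kcnq5 was 733 CPM at 1 UMI and 598 CPM at 2, and Selenbp1 36.2 and 42.0 CPM. In PyMT-N only 55 and 59 cells lay at this limit, and Tpm2 was high in both (174 and 152 CPM) relative to the whole PyMT-N tumor class. Its UMIs there lay in few cells, 8 of the 55 and 3 of the 59.

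Other genes of the Rhox cluster also had UMIs in PyMT-M tumor cells. Of 34 Rhox genes, 7 passed the minimum of 200 UMIs and were at least 8-fold higher in PyMT-M, where 5.52% of all genes were. Of these, 6 had no UMI in PyMT-N and could pass the minimum only through PyMT-M, so the direction of the count was fixed and nothing is read from it. Rhox1 stood at 48.7 CPM, Rhox2h at 44.7 CPM, Rhox2g at 35.3 CPM and Rhox2d at 23.6 CPM in PyMT-M, and none had a UMI in PyMT-N tumor cells. With 3 counts in the whole class taken as the floor, Rhox1 was at least 1240.0-fold and Rhox2d at least 600.2-fold higher. Rhox2e (6.05 CPM) and Rhox7b (3.25 CPM) were likewise at 0 in PyMT-N. The Rhox2 copies are close to identical, so the split of reads among them is uncertain. A further 19 Rhox genes had no UMI in either tumor class.

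Germline genes that somatic cells keep methylated were listed for comparison. Of 25 listed, 6 passed the minimum and were at least 8-fold higher in PyMT-M, beside 5.52% of all genes. With at most 3 UMIs each in PyMT-N they too passed only through PyMT-M, and nothing is read from their count. Tex19.1, a regulator of retrotransposons in germ cells and placenta, stood at 70.3 CPM in PyMT-M and had no UMI in PyMT-N, at least 1789-fold. Tdrd1, a tudor-domain partner of piRNA proteins, stood at 24.1 CPM against 0, at least 615-fold. Tex11, an X-linked meiosis gene, had 26.8 CPM in PyMT-M and 3 UMIs in all in PyMT-N (log2 9.42, 7.87 to 11.69). The X-linked Xlr3a (5.58 CPM), Xlr4c (2.68 CPM) and Xlr4b (2.60 CPM) each had 1 UMI among PyMT-N tumor cells, and their log2 ratios were 8.74 (6.25 to 14.04), 7.67 (5.19 to 12.98) and 7.63 (5.14 to 12.94). Dazl, Tex101, Asz1, Dpep3 and Xlr4a, also on the list, had no UMI in either tumor class.

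Kcnq5 was alone in its family. Of 9 Kcnq and Kcne channel genes measured, it was the only one with 200 UMIs. Kcnq1, the cardiac and epithelial subunit, reached 0.860 CPM in PyMT-M and 0.183 CPM in PyMT-N tumor cells.

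Tpm2 differed from the other tropomyosins. Tpm1 stood at 483 CPM in PyMT-M and 387 CPM in PyMT-N, Tpm3 at 329 and 342 CPM, and Tpm4 at 385 and 455 CPM. Of 16 contractile genes that passed the minimum, 2 were at least 8-fold higher in PyMT-M and 1 was lower. Over all genes 5.52% were higher and 8.97% lower. The 2 were Tpm2 and Des, the muscle intermediate filament, at 3.59 CPM against 1 UMI. Tagln was the lower one, at 1.60 against 13.8 CPM. Tpm2 was chosen on this contrast and Des passed only through PyMT-M, so nothing is read from the count. Acta2, smooth muscle actin, stood at 239.6 CPM against 54.8 CPM. The median log2 ratio of the list was -0.22.

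Hmga2 was set beside oncofetal genes, several of them let-7 targets. Of 11 that passed, Igf2bp1, an RNA-binding protein of embryonic tissue, was at least 92.7-fold higher in PyMT-M (3.64 CPM against 0). H19 and Mycn were at 0 in PyMT-M and 8.43 and 2.80 CPM in PyMT-N, at least 294-fold and 97.7-fold lower. Igf2bp1, H19 and Mycn each passed the minimum only through the library that held their UMIs. Their direction was therefore fixed, and nothing is read from it. Hmga1, the closest relative of Hmga2, went the other way, with 91.6 CPM in PyMT-M and 29.2 CPM in PyMT-N. The median of the list was -0.53.

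The relatives of Wfdc2, Selenbp1 and Mgst2 showed no common direction. Of 20 whey acidic protein genes 3 passed, and Slpi, a secreted protease inhibitor, stood at 24.9 and 25.8 CPM. Wfdc18 had 1 UMI in PyMT-M against 3.59 CPM in PyMT-N (log2 -8.55, -13.86 to -6.06). It passed only through PyMT-N, so its direction was fixed. Of 19 selenium genes, Selenbp1 was the only one 8-fold higher and Selenop, the plasma selenium carrier, the only one lower (0.296 against 7.32 CPM). Over all genes 5.52% were higher and 8.97% lower. Selenbp1 was chosen on this contrast, and nothing is read from the count. Selenoh, a nucleolar selenoprotein, stood at 230.4 and 56.6 CPM. Selenbp1 has a close paralog, Selenbp2, with which reads may be shared.

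Among 18 glutathione and leukotriene genes, 3 were at least 8-fold higher in PyMT-M and 2 lower. Over all genes 5.52% were higher and 8.97% lower, and nothing is read from the count. Alox5ap, the protein that presents arachidonate to 5-lipoxygenase, stood at 9.10 against 0.445 CPM, Gstm2 at 10.9 against 0.681 CPM and Gstt1 at 26.9 against 2.04 CPM. Ltc4s, the leukotriene C4 synthase, was at 0 in PyMT-M and 3.73 CPM in PyMT-N, at least 130.2-fold lower. Gstm5 was at 0.0478 against 25.3 CPM. Ltc4s and Gstm5 passed the minimum only through PyMT-N, so their direction was fixed. Mgst1 was lower in PyMT-M (32.0 against 145 CPM), Mgst3 nearly equal (42.5 against 36.6 CPM). The median of the list was 0.73.

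Genes of the epithelial-to-mesenchymal transition, given for the state of the cells that hold the 8 genes, also lay on both sides. Of 11 that passed, Twist2 was higher in PyMT-M (109.6 against 2.63 CPM) and Fn1, fibronectin, was lower (0.946 against 5049 CPM). Cdh2, N-cadherin, was lower as well (3 UMIs against 41.8 CPM, log2 -10.51, -12.79 to -8.96). Cdh2 passed the minimum only through PyMT-N, so its direction was fixed. Vim was 6425 CPM in PyMT-M and 2320.1 CPM in PyMT-N. The median log2 ratio was -1.01.

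Most PyMT-M tumor cells held most of the 8 genes at once. The median cell had UMIs of 7 of the 8, and 3803 of 4087 cells (93.1%, 92.2 to 93.8) had at least 6. In PyMT-N 2 of 3359 tumor cells (0.0595%, 0.00721 to 0.215) did, and the median was 2. Since cells differ in depth, each cell was also thinned to 5000 UMIs, which left out 3 tumor cells in PyMT-M and 4 in PyMT-N. At that depth the PyMT-M median was 5 genes and 34.6% of cells (33.2 to 36.1) held at least 6. No thinned PyMT-N tumor cell did (0 of 3355).

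At 5000 UMIs, Rhox5 was found in 94.05% of PyMT-M tumor cells, Hmga2 in 82.7%, Kcnq5 in 76.4%, Tpm2 in 70.6%, Wfdc2 in 57.8%, Gm30835 in 53.9%, Mgst2 in 43.1% and Selenbp1 in 15.96%. PyMT-M endothelial cells, taken as background, held them in 9.42%, 8.21%, 8.51%, 6.38%, 5.47%, 3.04%, 4.86% and 1.22% of cells in the same order. Median depth before thinning was 24455 UMIs in tumor and 5291.5 in endothelial cells, of which 289 of 618 were too shallow to thin. In PyMT-N tumor cells the thinned shares were 4.08% for Rhox5, 11.1% for Wfdc2, 8.91% for Mgst2, 1.79% for Selenbp1, 1.04% for Tpm2, 0.417% for Kcnq5 and 89.6% for Hmga2. Gm30835 was found in none.

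**Figure D3:**
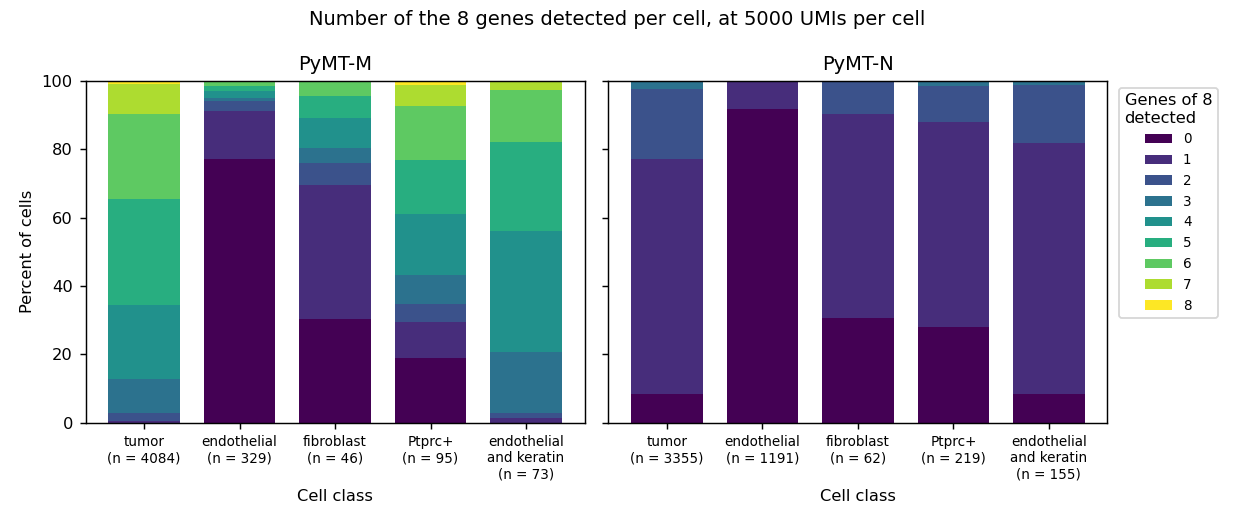
Percent of cells (stacked bars) by how many of the 8 genes were detected, by cell class, with PyMT-M in the left panel and PyMT-N in the right, every cell thinned to 5000 UMIs and shallower cells left out. PyMT-M tumor cells have a median of 5, PyMT-N tumor cells of 1, and endothelial cells of both libraries of 0.

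Among PyMT-M tumor cells the genes did not vary as 1 block. Over 4084 cells thinned to 5000 UMIs, all from the same library, Pearson's r of log2(UMIs + 1) was 0.36 for Kcnq5 and Hmga2, 0.32 for Gm30835 and Hmga2 and 0.32 for Kcnq5 and Gm30835. Rhox5, Tpm2 and Wfdc2 were weakly positive with each other (0.07 to 0.09) and negative with Hmga2 (-0.12, -0.10 and -0.13). Selenbp1 and Mgst2 lay between -0.08 and 0.01 with every other gene. Such weak values in sparse counts are no finding.

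The first 3 genes also followed the makeup of the cell. Their r with Malat1, a nuclear noncoding RNA, was 0.49 for Kcnq5, 0.44 for Hmga2 and 0.42 for Gm30835, and with the share of ribosomal-protein UMIs -0.40, -0.29 and -0.41. For the other 5 genes r with Malat1 ran from -0.16 to -0.01. With the mitochondrial share r was 0.20, 0.15 and 0.22 for the 3 genes. In cells above the median mitochondrial share, Gm30835 stood at 306 CPM against 188 CPM in the rest and Kcnq5 at 679 against 479.7 CPM, whereas Rhox5 stood at 669 and 689 CPM. Whether nuclear content or RNA quality has a part in the shared variation was not tested.

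By detection of pairs, those among Kcnq5, Gm30835 and Hmga2 were again highest, though in another order, and the lowest pair differed. Of 28 pairs, 12 were found together in more PyMT-M tumor cells than the product of their shares. The ratio was highest for Kcnq5 and Gm30835 (45.6% of cells against 41.2%) and lowest for Kcnq5 and Selenbp1, at 0.911 of the product.

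**Figure D4:**
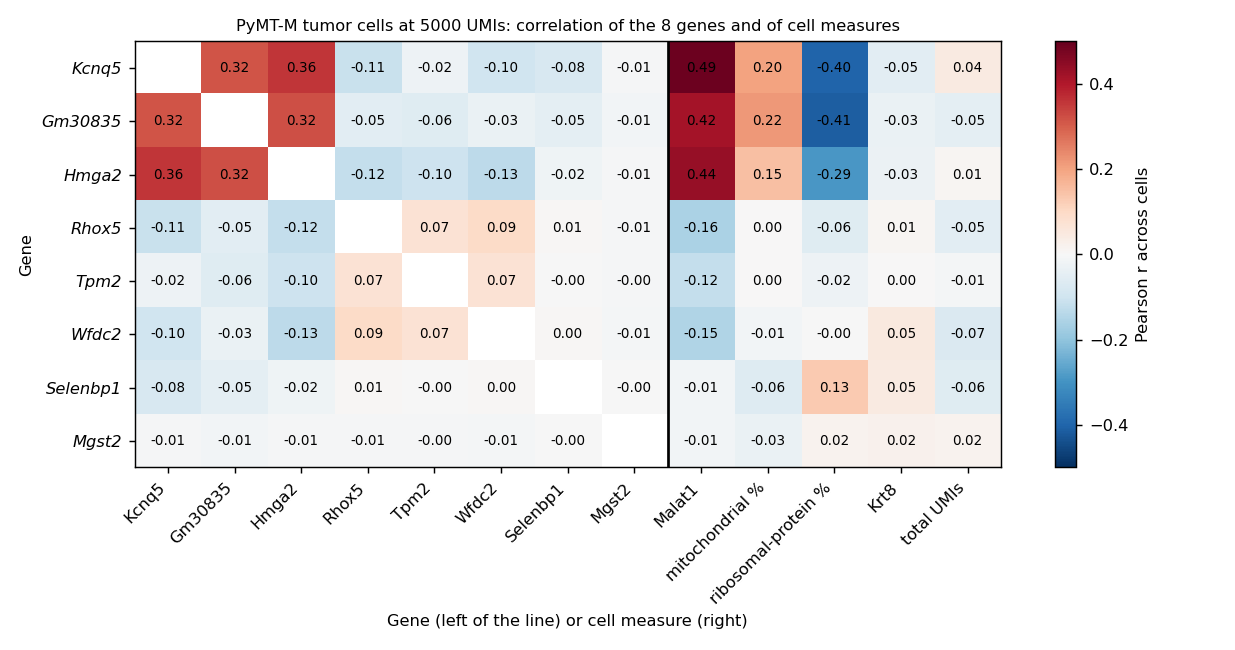
Pearson's r across 4084 PyMT-M tumor cells thinned to 5000 UMIs, between the 8 genes (left of the line) and with measures of the cell (right). Kcnq5, Gm30835 and Hmga2 form 1 block (0.32 to 0.36) that also follows Malat1 (0.42 to 0.49), while Selenbp1 and Mgst2 are near 0 with every gene.

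In PyMT-M endothelial cells the 8 genes stood at 3.46 to 68.1 CPM, or 8.09% to 25.6% of their level in tumor cells. Rhox5 stood at 64.1 CPM, 9.42% of the tumor level. Kcnq5 (8.95%), Gm30835 (8.46%), Hmga2 (8.09%) and Selenbp1 (8.85%) were close to that share, Mgst2 (12.5%) and Wfdc2 (14.3%) somewhat above it and Tpm2 (25.6%) well above it. These UMIs were concentrated in few cells. The 21 cells that held at least 3 of the 8 genes carried 86.7% of the Rhox5, 87.5% of the Kcnq5, 90.9% of the Gm30835 and 88.5% of the Hmga2 UMIs of the class. They had a median of 22150 UMIs, against 5194 in the other 597 cells, and Cdh5 at 285 CPM against 969 CPM. Since the 21 cells were picked by detection of these genes, their share of the UMIs and their greater depth follow in part from the choice. In the 597 cells Rhox5 stood at 9.62 CPM, Kcnq5 at 7.21 CPM and Gm30835 at 2.10 CPM, and Tpm2 remained at 42.7 CPM.

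Of the 142 Tpm2 UMIs in the 597 cells, 120 were in 5 cells, singled out after the values were seen, with at least 2 Tpm2 UMIs and none of Rhox5. In these Tpm2 stood at 2554 CPM beside the mural-cell genes Rgs5 (4299 CPM), Notch3 (979 CPM) and Acta2 (10534 CPM). Each of these mural-cell genes was found in 4 of the 5 cells, and Pecam1 in 1. Other pericyte markers were not read in them. In PyMT-N endothelial cells Rhox5 had no UMI in 1243 cells, which at the floor of 3 counts allows a share of up to 0.241%, and Gm30835 had 1 UMI. Of the 4 genes with at least 200 UMIs over both endothelial classes, 2 (Rhox5 and Tpm2) were at least 8-fold higher in PyMT-M, where 0.176% of 9067 genes were, and none was lower, where 1.39% were. Both reached 200 UMIs through PyMT-M alone, so the count is not a result about the genes. Without the 21 cells that held at least 3 of the genes, the summed level of the 8 in PyMT-M endothelial cells was 87.2 CPM, against 301 CPM with them.

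Barcodes with both endothelial and keratin UMIs held the 8 genes at 52.4% to 124% of their tumor-cell level in PyMT-M. Of the 73 such cells, 71 (97.3%, 90.5 to 99.7) had at least 6 of the genes with no thinning, and all 73 had Rhox5. Thinned to 5000 UMIs, 17.8% (9.84 to 28.5) had at least 6, with a median of 4. PyMT-M tumor cells at that depth had 34.6% and a median of 5. The level was 90.9% of that in tumor cells for Rhox5, 95.4% for Mgst2, 88.2% for Wfdc2, 78.9% for Tpm2, 73.1% for Hmga2, 58.4% for Gm30835, 52.4% for Kcnq5 and 124% for Selenbp1. In this class the genes that varied with Malat1 had the 3 lowest shares. The intervals of Hmga2 (68.6% to 77.9%) and Tpm2 (71.9% to 86.5%) overlapped, however. In PyMT-M Ptprc+ cells the same 3 had the highest shares, with Kcnq5 at 74.2%, Gm30835 at 71.8% and Hmga2 at 70.9%. The cells with endothelial and keratin UMIs had a median of 28162 UMIs, above that of tumor cells. All 12 endothelial markers were found in at least 25% of them (1279 CPM summed, against 7802 in endothelial cells). Between libraries, 5 of the 7 genes with at least 200 UMIs in this class were at least 8-fold higher in PyMT-M, where 0.419% of 5972 genes were, and none was lower, where 3.52% were. These 5 passed the minimum through PyMT-M and were chosen for that direction, so nothing is read from the count. Hmga2 had 438 CPM in PyMT-M and 1046 CPM in PyMT-N. Doublets were not removed, and their part in this class was not tested.

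Ptprc+ cells of PyMT-M were split by the same genes, so the shares and depths here too follow in part from the choice of cells. The class stood at 395 CPM of Rhox5, but 66 of its 488 cells held at least 3 of the 8 genes and carried 99.1% of those UMIs, at a median depth of 23582.5 UMIs. The other 422 cells had a median of 1535.5 UMIs and Rhox5 at 9.64 CPM. Kcnq5 stood at 239 CPM in 23.9% of the 422 cells, and the other 6 genes at 3.21 to 19.3 CPM. Of 7 genes with at least 200 UMIs over both Ptprc+ classes, 4 (Rhox5, Gm30835, Tpm2 and Wfdc2) were at least 8-fold higher in PyMT-M, where 0.373% of 5630 genes were, and none was lower, where 1.78% were. Here too the 4 passed through their PyMT-M UMIs, most of them in the 66 cells, and the count is not to be read as a result.

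Kcnq5 was therefore not particular to tumor cells. Among Ptprc+ cells with no keratin UMI it stood at 282 CPM in PyMT-M and 374 CPM in PyMT-N. In cells with a UMI of Cd79a, a B cell receptor component, and no keratin UMI, it stood at 431 CPM (371 to 499) in PyMT-M and 457 CPM (428 to 488) in PyMT-N, in 35.7% of 213 and 77.1% of 201 cells of median depth 1304 and 6702 UMIs. In cells with the myeloid gene Lyz2 it was at 121 and 415 CPM, and with the T cell gene Cd3e at 186 and 325 CPM. A cell could be in more than 1 of these 3 sets. In PyMT-N they numbered 201, 140 and 98 cells, beside 289 Ptprc+ cells with no keratin UMI. The Cd79a set there had 931 Kcnq5 UMIs, where the 289 cells had 1023. Myeloid and T cells without Cd79a were not read apart. In PyMT-N tumor cells, by contrast, the level was 1.15 CPM. In the PyMT-N endothelial class, 64 cells with a Ptprc or Cd79a UMI (5.15% of the class) held 542 of the 555 Kcnq5 UMIs, at 389 CPM against 0.818 CPM in the other 1179 cells. In the PyMT-N tumor class, 20 cells with a Ptprc UMI held 24 of 88.

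Hmga2 in PyMT-N Ptprc+ cells (402 CPM) lay mostly in 41 cells with at least 2 keratin UMIs, which held 94.2% of it. Those cells stood at 1307 CPM, and the other 316 at 32.8 CPM.

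Tpm2 was also a fibroblast gene in both libraries. In the fibroblast class it stood at 398 CPM (347 to 455) in PyMT-M and 639 CPM (600.0 to 681) in PyMT-N, in 62.1% and 69.8% of cells. In PyMT-M, 13 of 58 fibroblast cells held at least 3 of the 8 genes and 96.1% of the Rhox5 UMIs, beside 59.3% of the Tpm2 and 61.5% of the Selenbp1 UMIs. Those 13 cells were again picked by the genes themselves. In the other 45 cells Tpm2 stood at 282 CPM, in 55.6% of cells, whereas Gm30835, Hmga2 and Mgst2 had no UMI. In PyMT-N tumor cells, 14 cells that also met the fibroblast limit held 153 of 321 Tpm2 UMIs. Outside them Tpm2 stood at 2.21 CPM. Of the 8 genes, 2 had 200 UMIs over both fibroblast classes, and neither was 8-fold higher, where 0.568% of 1760 genes were, or lower, where 0.852% were.

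The levels in PyMT-M tumor cells were then read by keratin level, depth and cycling. Rhox5 hardly moved, with 677 CPM in cells of at least 10 keratin UMIs and 678 CPM in cells of 2 to 4. Wfdc2 was 232 CPM against 193 CPM, and Gm30835 219 CPM against 270.4 CPM. Selenbp1 varied most. It stood at 32.9 CPM in cycling cells (at least 2 Mki67 and Top2a UMIs) and 64.0 CPM in the rest, a log2 difference of -0.96 (-1.06 to -0.86), and at 31.2 CPM in the third of cells with the most UMIs against 55.7 CPM in the third with the fewest. Cycling cells were also deeper, with a median of 26383 UMIs against 19865, and the part of depth was not tested. For the other 7 genes the difference with cycling lay between -0.23 and 0.15. By depth Selenbp1 went the other way in PyMT-N tumor cells. It stood there at 4.37 CPM in the third with the most UMIs and 2.78 CPM in the third with the fewest.

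Selenbp1 was also the most uneven across cells, with 1% of PyMT-M tumor cells holding 13.3% of its UMIs. Cells with and without it were compared for 14 genes of the hypoxia response, a list chosen after the values were seen. In PyMT-M, 829 tumor cells with at least 2 Selenbp1 UMIs were higher than 2389 cells with none for 14 of 14 genes, by a median of 1.91-fold. Of all 10390 genes, 25.2% were higher in the cells with Selenbp1, and the median was 0.918-fold. Adm, adrenomedullin, stood at 209.6 against 34.7 CPM, Bnip3, a mitophagy receptor, at 98.1 against 33.2 CPM, and Hilpda, a lipid droplet protein, at 140.1 against 56.0 CPM. Ndrg1 stood at 209 against 100.2 CPM and the glucose transporter gene Slc2a1 at 150.1 against 76.6 CPM. The cells with Selenbp1 had fewer cycling transcripts, with Mki67 at 23.5 against 34.8 CPM. Median depth was 25381 and 24123 UMIs.

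Adm was higher at each step of Selenbp1 in PyMT-M. It stood at 34.7 CPM with none, 57.7 CPM with 1 UMI, 100.3 CPM with 2 and 288 CPM with 3 or more. In PyMT-N, 42 tumor cells with at least 2 Selenbp1 UMIs were set against 3142 with none. There 14 of 14 genes were higher, with a median of 2.36-fold, where 45.4% of 10778 genes were. Because the list was chosen after the values were seen, the count is not read as a result in either library. Car9, carbonic anhydrase 9, stood at 18.0 against 1.18 CPM there and at 9.84 against 2.32 CPM in PyMT-M. Depth in PyMT-N differed, with medians of 31477.5 and 20357 UMIs, and its part was not tested.

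**Figure D5:**
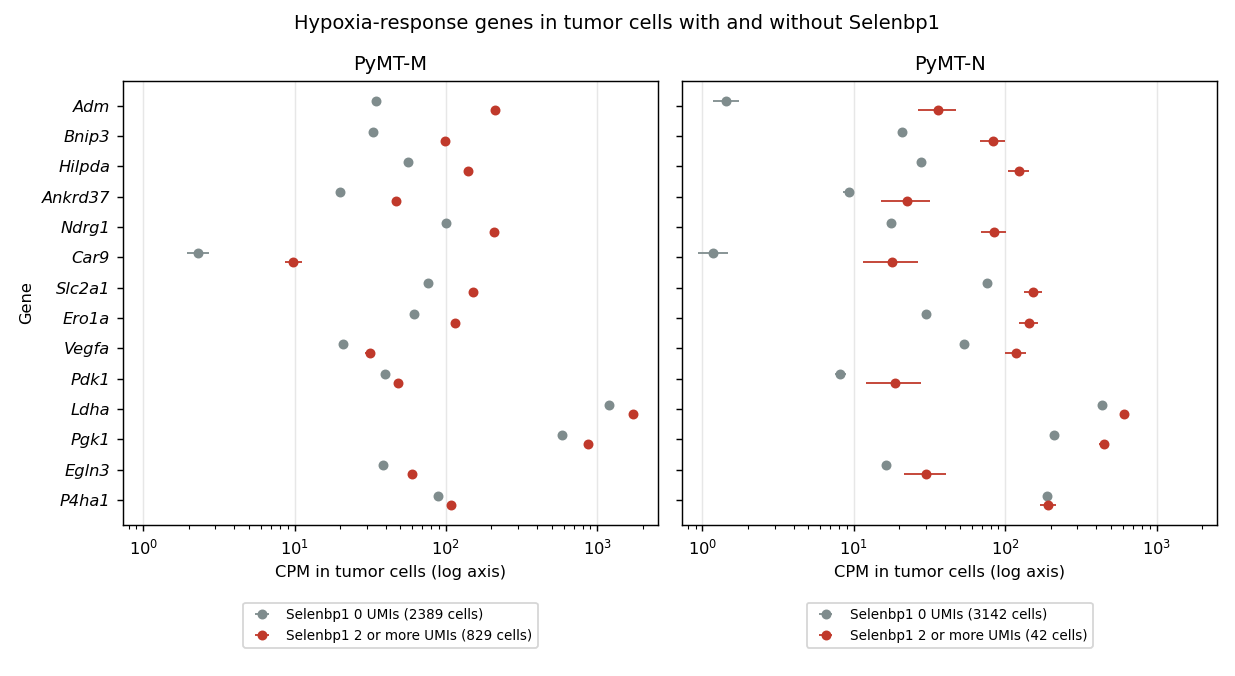
Level of 14 hypoxia-response genes (CPM, log axis) in tumor cells with at least 2 Selenbp1 UMIs (red) and with none (grey), with PyMT-M in the left panel and PyMT-N in the right, and 95% exact Poisson intervals. All 14 are higher with Selenbp1 in both libraries, by a median of 1.91-fold in PyMT-M and 2.36-fold in PyMT-N. The 14 genes were chosen after the values were seen.

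Rhox5 in PyMT-N was held by few tumor cells. Of 3359 cells, 2937 had no UMI, 262 had 1, 77 had 2 and 83 had 3 or more, and 1% of cells held 45.2% of the UMIs. Contractile genes and Krt18 were read across these steps, a choice made after the values were seen. Acta2 stood at 39.5, 79.7, 119.7 and 341 CPM, Actg2, the smooth muscle gamma actin, at 9.21, 24.0, 50.8 and 58.1 CPM and Myl9, a myosin light chain, at 8.27, 15.5, 25.4 and 40.2 CPM. These are only some of the contractile genes listed above, and no share over all genes stands beside them. Nothing is read from their rise about contractile genes as a group. Krt18, at 0.0669 CPM in PyMT-M tumor cells, stood at 979.5 to 1247 CPM in all 4 steps. Median depth ran from 20209 to 27227 UMIs over the 4 steps, and its part was not tested.

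The genes whose levels over the 10 profiles (5 classes in 2 libraries) were most like the mean of the 8 were Phgdh (r = 0.990), Eef1d, Aldh9a1, Nap1l1, Hspe1, Umps, Sfxn1, Metrn, Blvrb and Lgals3 (0.976), among 13660 genes on the log2(CPM + 5) scale. The profiles come from 2 libraries only. Phgdh, the first enzyme of serine synthesis, stood at 323 CPM in PyMT-M and 14.7 CPM in PyMT-N tumor cells. Lgals3, galectin-3, stood at 1344 and 129 CPM. Besides Phgdh and Lgals3, only Blvrb of the 10 was at least 8-fold higher in PyMT-M tumor cells (log2 ratio 3.303). For the rest of the 10 the log2 ratio ran from 0.93 for Sfxn1 to 2.64 for Umps. Eef1d, for example, stood at 822 CPM in PyMT-M and 352 CPM in PyMT-N tumor cells. A profile like the mean of the 8 therefore did not make a gene particular to PyMT-M tumor cells. Among the 8 genes themselves, r with their mean was 0.97 for Rhox5, 0.95 for Gm30835, 0.93 for Wfdc2, 0.92 for Mgst2 and 0.91 for Selenbp1, and lower for Kcnq5 (0.74), Tpm2 (0.66) and Hmga2 (0.42). The last 3 are those with high levels in PyMT-N leukocytes, fibroblasts and tumor cells. Each gene is part of the mean it was set against, and the genes were chosen on these classes. High values of r are therefore in part built in.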

How the data were processed

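Single-cell RNA of 2 sorted suspensions, each a pool of 3 tumors, was made into 10x Genomics 3′ v3.1 libraries. The authors deposited whole-number UMI counts per gene and barcode from Cell Ranger 8.0.0, not normalized, and the submitters' processing notes name mm39. The PyMT-M library held 141067264 UMIs and PyMT-N 116150425, and kept cells had medians of 21262 and 18558 UMIs. The limit of gene number to within 2-fold of the median, part of the study's filter, was used as an alternative. Counts were summed per class and library. CPM have exact Poisson intervals, shares exact Clopper-Pearson intervals and ratios the exact interval of 2 Poisson counts. Where a gene had no UMI, 3 counts per class served as the floor. With 1 library per condition there is no test, and 8-fold among genes with at least 200 UMIs stands as the mark of size. Doublets were not removed. The protocol with the samples names another collagenase than the methods do.

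The 8 genes, the gene lists and the classes were chosen with earlier results of these data known. The genes named are the 8, the 10 of most similar profile, list members past 8-fold or at either end of a list, and the class markers, and all others were chosen after their values were seen. Reads shared by near-identical genes (Rhox2 copies, Selenbp1 and Selenbp2, Hmga2 and its pseudogene) may be split. Ratios were tested on simulated counts of the tumor comparison over 12377 genes, 200 of them changed. Intervals held the true value for 95.1%, and 100% of changed and 0% of unchanged genes passed 8-fold. The counts were drawn from the Poisson model that the intervals assume, and every change was set beyond 8-fold. This checks the computing only and says nothing of spread between tumors or cells. Alternatives covered class limits, cell filters, the CPM total, thinning, mean over cells, the gene minimum and the pseudocount. Promoter windows of 250 bases came from RefSeq tables. Computing used pandas 2.3.3, scipy 1.17.1 and numpy 2.4.6 under Python 3.11.15, with figures from matplotlib 3.10.9.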

Additional observations from a re-analysis of the deposited data

Results flagged for a closer look

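Cells that met no class limit entered no comparison of classes, though those with 1 keratin UMI are described at the keratin limit. They held the 8 genes at a summed 2873 CPM in PyMT-M and 1608 CPM in PyMT-N. In PyMT-M cells of no class Rhox5 stood at 594 CPM and Kcnq5 at 730.2 CPM, and 1070 of 1445 such cells held at least 6 of the genes. In PyMT-N cells of no class most of the sum was Hmga2 (1534 CPM).

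The next results stood out because a contrast within tumor cells had opposite signs in the 2 libraries. The difference between libraries was not tested. Tpm2 in cells of at least 10 keratin UMIs over cells of 2 to 4 had a log2 difference of 0.13 in PyMT-M and -4.58 in PyMT-N, where cells of low keratin include those that also met the fibroblast limit. Hmga2 in cycling over other tumor cells gave -0.23 for PyMT-M, at 579 against 677 CPM, and 0.25 for PyMT-N, at 1689.5 against 1418 CPM. Hmga2 by keratin level gave -0.14 for PyMT-M and 0.93 for PyMT-N, at 1508 against 793 CPM there.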

How the results depend on the processing

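The number of the 8 genes at least 8-fold higher in PyMT-M tumor cells was 5 under all 11 alternatives for that comparison. Of 88 values of single genes, 62 moved by less than their counting interval, 26 moved by more and 0 changed sign, and the cause was not tested. The log2 ratio of Gm30835 ranged from 11.56 to 14.17 and that of Tpm2 from 5.42 to 6.91. The summed level in PyMT-M endothelial cells (301 CPM) was 229.6 CPM in cells with no keratin UMI, 271 at 10 or more endothelial UMIs, 274 without the 6% of barcodes with the most UMIs, 383 with gene number within 2-fold of the median and 87.2 without cells of 3 or more of the genes. In fibroblast cells (1232 CPM) it was 638 with at most 1 keratin and no Pecam1 or Flt1 UMI and 1132 without the 6%. In Ptprc+ cells (1765 CPM) it was 876 under the same keratin and endothelial limit, 1678 without the 6%, 2375 within 2-fold of the median and 328 without cells of 3 or more of the genes other than Kcnq5 and Hmga2. The removal of cells by number of genes was added after the data were seen, and lowers these sums by construction. The share of PyMT-M tumor cells with at least 6 genes (34.6%) was 3.43% at 2000 UMIs and 93.1% with no thinning, and pairs found together above the product numbered 20 with no thinning against 12. The share in cells with both endothelial and keratin UMIs was 100% at 10 or more keratin UMIs, against 97.3% (no thinning). At 4-fold 1139 genes were higher, against 686 at 8-fold. With the gene minimum lowered to 50 UMIs, 1000 genes were at least 8-fold higher. With log2(CPM + 1), 5 of the 10 genes of most similar profile remained. No paired analysis was possible because each condition has 1 library. Depth limits what can be said of Selenbp1 and of PyMT-M endothelial and Ptprc+ cells, most of which hold few UMIs.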
